A study of Zea mays with 6 samples.

Results

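In maize kernels sampled 15 days after pollination, 139 loci had far less transcript in the replicate 3 libraries of wild-type (WT) and o11 mutant kernels than in replicates 1 and 2, and 13 loci had far more. A locus was taken when, in WT and in o11 alike, its replicate 3 value was at least 4 times the higher, or no more than 1/4 of the lower, of replicates 1 and 2. In addition, the higher side had to reach 10 FPKM in both genotypes, with replicates 1 and 2 each at 10 FPKM or more where replicate 3 was the low side. No value could be 0. These 152 loci came from 32666 in the files, of which 32451 lie on chromosomes 1 to 10. The loci were thus chosen by the FPKM values of these same 6 libraries, so the size and direction of the replicate 3 difference are given as a description, with no test.

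The study compared WT with homozygous o11 mutant kernels, with 3 RNA sequencing libraries of each genotype, numbered 1 to 3. The labels name the tissue as kernel, and the series design text speaks of endosperm. Separate plants or ears are not named for the replicates in any label, and p-values therefore cover only how these libraries vary, in part perhaps for technical reasons. Nor do the labels name the inbred background or the allele of o11. FPKM, the unit of all values, counts fragments relative to transcript length and to all fragments mapped in that library.

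A maize kernel joins the endosperm, which fills with starch and storage protein, with the embryo and the maternal pericarp around them. At this age the endosperm is in active filling, and its RNA is dominated by transcripts for storage proteins and starch synthesis. The product of opaque11 (o11) is a transcription factor with a helix-loop-helix domain that acts in the endosperm. In a whole-kernel library, fewer cells of a type and less RNA per cell cannot be told apart.

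Loci are given by position on B73 RefGen_v3, and no gene names could be paired with them, so the roles of single loci, the markers of kernel tissues and the o11 transcript were not analysed here. Replicates 2 and 3 have the same tools listed, TopHat and Cufflinks, while replicate 1 of both genotypes has Bowtie 0.12.2. Summed FPKM was highest in replicate 3 of each genotype, at 1072271 in WT and 1001869 in o11, against 784761 to 947585 in the other libraries. Relative sequencing depth, read from the steps between low values with WT replicate 1 set to 1, was estimated at 1.04 and 1.13 in WT and o11 replicate 3, and at 0.896 to 1.31 over all libraries. These estimates are rough, since in the 5 libraries set against WT replicate 1 only 19.7% to 31.0% of the loci used sat at the step. Absolute depth is not known. The 98 plastid and mitochondrial loci summed to 143 and 54.7 FPKM in WT and o11 replicate 3, between replicate 1 (37.0 and 35.1) and replicate 2 (268 and 228). Their part in the differences below was not tested.

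The loci with less transcript in replicate 3 included some that were abundant in the other libraries. Their median level was 34.3 and 40.9 FPKM in WT replicates 1 and 2 and 2.69 FPKM in WT replicate 3. In o11 the medians were 30.8, 37.8 and 2.82 FPKM. As a share of all FPKM in a library, the 139 loci summed to 2.12%, 2.49% and 0.160% in the WT libraries 1 to 3 and 1.74%, 1.99% and 0.116% in those of o11. The 13 loci with more transcript in replicate 3 had medians of 2.60, 2.62 and 20.9 FPKM in WT and 2.67, 3.40 and 21.9 FPKM in o11. They never held more than 0.163% of a library.

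**Figure D1:**
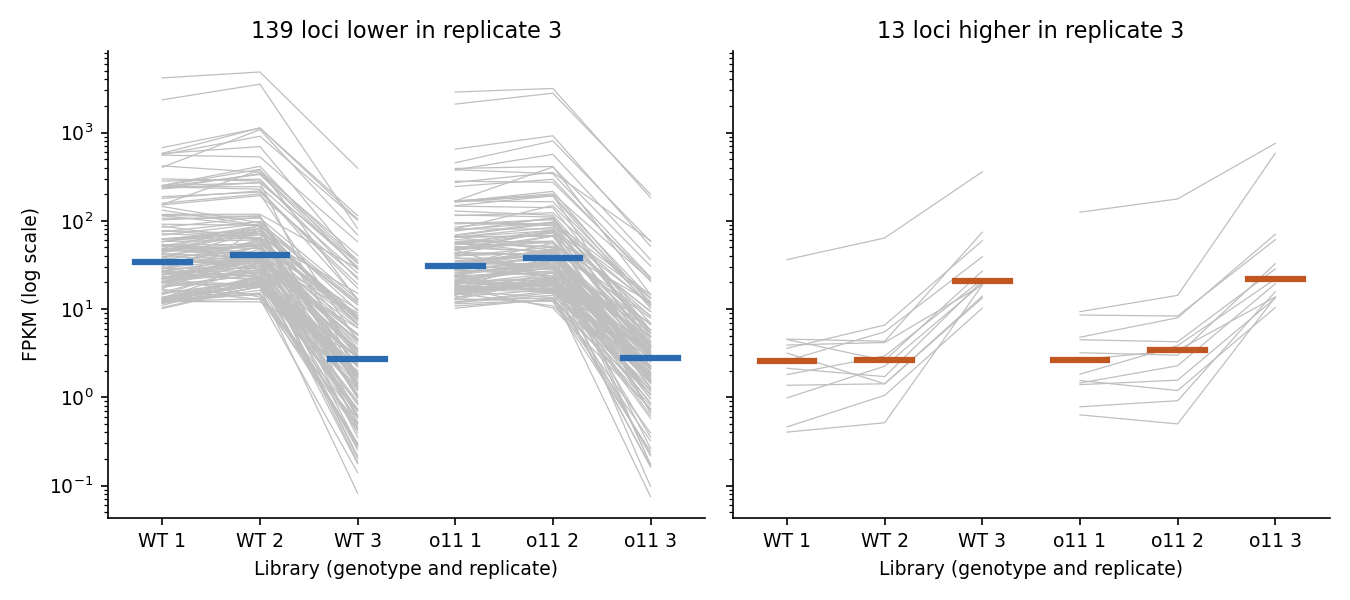
FPKM (log scale) of each of the 139 loci lower (left) and 13 loci higher (right) in replicate 3, across the 6 libraries; a grey line joins the 3 libraries of 1 genotype, with no order implied, and a thick bar marks the median. The median of the lower loci is 2.69 FPKM in WT replicate 3 and 2.82 FPKM in o11 replicate 3, and is between 30.8 and 40.9 FPKM in the other 4 libraries.

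Replicate 3 was singular in how many loci met the rule, and nearly all of them were low there. With the same rule set to replicate 1, 9 loci were lower and 0 higher, and with replicate 2, 0 were lower and 2 higher. The lower loci had a median fold of 10.8 in WT and 12.2 in o11, measured against the nearer of replicates 1 and 2. For 76 of the 139 the smaller of the 2 genotypes' folds was at least 8, for 31 at least 16 and for 13 at least 32. Replicate 3 fell under 1 FPKM in both genotypes at 17 of these loci, and in at least 1 genotype at 41. The fold was larger in WT at 71 loci and larger in o11 at 68. Of the 13 higher loci, 4 reached a smaller fold of 8 and 1 a smaller fold of 16.

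**Figure D2:**
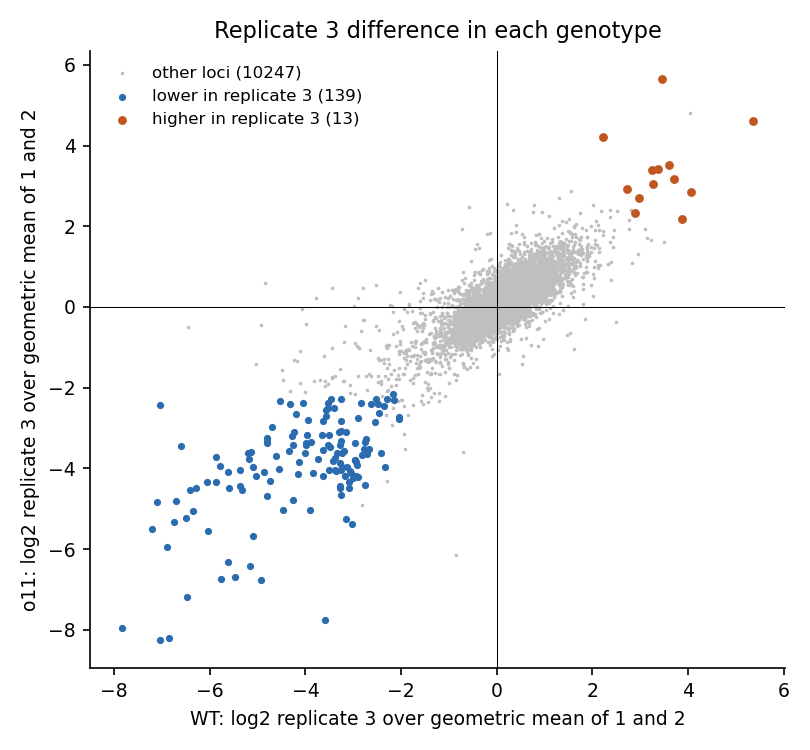
Log2 of the replicate 3 value over the geometric mean of replicates 1 and 2, in WT (x axis) and o11 (y axis), 1 point per locus on chromosomes 1 to 10 with no value of 0 and either replicate 3 or replicates 1 and 2 at 10 FPKM or more in both genotypes. Loci lower (139) and higher (13) in replicate 3 are coloured and lie at the ends of a continuous cloud of 10247 other loci.

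The rule cut this cloud without a gap on the lower side. Just inside it, a locus on chromosome 7 (158972709 to 158974368) had 12.3, 22.8 and 1.74 FPKM in WT replicates 1 to 3 and 14.7, 21.3 and 3.65 FPKM in o11, a smaller fold of 4.04. Another on chromosome 2 (225614515 to 225615099) had 118, 119 and 28.9 FPKM in WT and 95.1, 88.1 and 13.4 FPKM in o11, a smaller fold of 4.09. Just outside were loci on chromosome 4 at 236344680 and at 198256537, both with a smaller fold of 3.95. On the higher side the 2 loci nearest the limit had smaller folds of 4.03 (chromosome 5, 71873816) and 4.26 (chromosome 2, 232655976). The nearest outside were 2 loci on chromosome 8, with 3.73 (124537076) and 3.68 (8303190).

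The most abundant of the lower loci lay on chromosome 3 (138651695 to 138652380), a short locus of 686 bases. It stood at 4158, 4854 and 395 FPKM in WT replicates 1 to 3 and at 2877, 3158 and 183 FPKM in o11. Next came a chromosome 10 locus (101536930 to 101537806), with 2351, 3527 and 81.6 FPKM in WT and 2100, 2791 and 199 FPKM in o11. Both genotypes thus had a clear gap between replicate 3 and the other libraries, but the genotypes differed in which replicate 3 library was lowest: o11 at the first locus and WT at the second. Without these 2 loci the other 137 still held 1.35%, 1.60% and 0.116% of WT replicates 1 to 3 and 1.10%, 1.28% and 0.0781% of o11.

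The other 4 loci completed the 6 with the highest level. On chromosome 2, a locus at 218011745 to 218014457 had 675, 1123 and 115 FPKM in WT and 648, 920 and 51.4 FPKM in o11. A chromosome 5 locus (215369080 to 215369690) had 582, 1129 and 105 FPKM in WT and 454, 804 and 58.4 FPKM in o11. At both, replicate 2 was well above replicate 1 in either genotype. A chromosome 7 locus (6361037 to 6362223) had 562, 907 and 102 FPKM in WT and 376, 566 and 36.3 FPKM in o11. The second chromosome 2 locus of this group (220528665 to 220529277) had 579, 693 and 33.0 FPKM in WT and 392, 412 and 14.6 FPKM in o11. All 4 were lower in o11 than in WT within every replicate number.

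The largest folds were at less abundant loci whose transcript was nearly absent from replicate 3. A chromosome 9 locus (135003200 to 135004291) had 20.1 and 17.6 FPKM in WT replicates 1 and 2 and 0.0823 in replicate 3, and 23.3, 15.0 and 0.0750 FPKM in o11, a smaller fold of 199. On chromosome 7 (136059934 to 136062148) the WT libraries had 41.2, 53.0 and 0.353 FPKM and the o11 libraries 46.5, 58.0 and 0.171 FPKM, a smaller fold of 117. At the first, replicate 3 was at a like level in both genotypes, while at the second it was lower in o11, by a log2 ratio of -1.05. Levels this low rest on few fragments, and the number of fragments is not known. Neither likeness nor difference between the genotypes can therefore be read from these replicate 3 values. A chromosome 1 locus (228704641 to 228705641) went from 18.3 and 33.8 FPKM to 0.216 in WT and from 23.9 and 34.7 FPKM to 0.0980 in o11. A second one on chromosome 1 (50085519 to 50086641) went from 41.7 and 29.97 FPKM to 0.396 in WT and from 46.5 and 21.5 FPKM to 0.216 in o11. Their smaller folds were 84.5 and 75.7. Replicate 3 stood at 0.396 FPKM or less at all of these loci, so the exact size of their folds is uncertain as well.

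Among the 13 higher loci, the level in replicate 3 was dominated by 2. The chromosome 2 locus at 232655976 to 232657347 had 36.3, 63.9 and 359 FPKM in WT and 125, 177 and 754 FPKM in o11. A chromosome 8 locus (12275985 to 12276693) had 2.13, 1.72 and 20.9 FPKM in WT and 9.35, 14.3 and 582 FPKM in o11. The o11 replicate 3 library alone thus held most of the summed FPKM of the second locus. Chromosome 8 held 4 of the 13, and 2 more were at 15550758 to 15554318 and 24535069 to 24535889. The former had 4.56, 4.31 and 74.3 FPKM in WT and 8.56, 8.33 and 61.0 FPKM in o11. The latter had 3.59, 6.58 and 59.5 FPKM in WT and 4.80, 7.96 and 70.4 FPKM in o11. At neither did the genotypes differ as much as the replicates.

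Chromosome 4 held another 4 of the higher loci. The one at 24476017 to 24477140 had the largest smaller fold, 21.6, with 0.403, 0.515 and 18.7 FPKM in WT and 0.632, 0.5 and 13.6 FPKM in o11. At 120618664 to 120620049 the values were 2.60, 5.52 and 39.1 FPKM in WT and 1.45, 2.28 and 19.3 FPKM in o11. The locus at 134350966 to 134352287, had 0.984, 2.25 and 19.5 FPKM in WT and 1.39, 1.56 and 13.3 FPKM in o11. In all 3 the o11 replicate 3 value was below that of WT. A chromosome 5 locus (5197840 to 5199411), the sixth by level, had 4.51, 2.62 and 27.0 FPKM in WT and 4.49, 4.26 and 28.4 FPKM in o11. The remaining 5 loci had 10.2 to 21.8 FPKM in WT replicate 3 and 10.4 to 32.6 FPKM in o11 replicate 3.

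The lower loci were short. Their span, the distance from the start to the end of the locus with introns, had a median of 1755 bases and ran from 352 to 143463. It was 4421 bases for the 9080 loci that could have been lower, those with no 0 and at least 10 FPKM in replicates 1 and 2 of both genotypes. Of such loci spanning up to 1000 bases, 34 of 476 (7.14%) were lower in replicate 3. The share was 4.63% (42 of 907) from there up to 2000 bases, 0.961% (37 of 3852) up to 5000 bases and 0.676% (26 of 3845) above. The fold between replicate 3 and the others was larger in WT than in o11 at 9 of the 34 shortest loci and at 20 of the 26 longest. Abundant loci also took a larger share, with 1.06% (31 of 2935) at a mean of 10 to 20 FPKM and 4.33% (10 of 231) at 300 FPKM or more. The higher loci had a median span of 1386 bases, and none of the 13 exceeded 3643 bases.

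**Figure D3:**
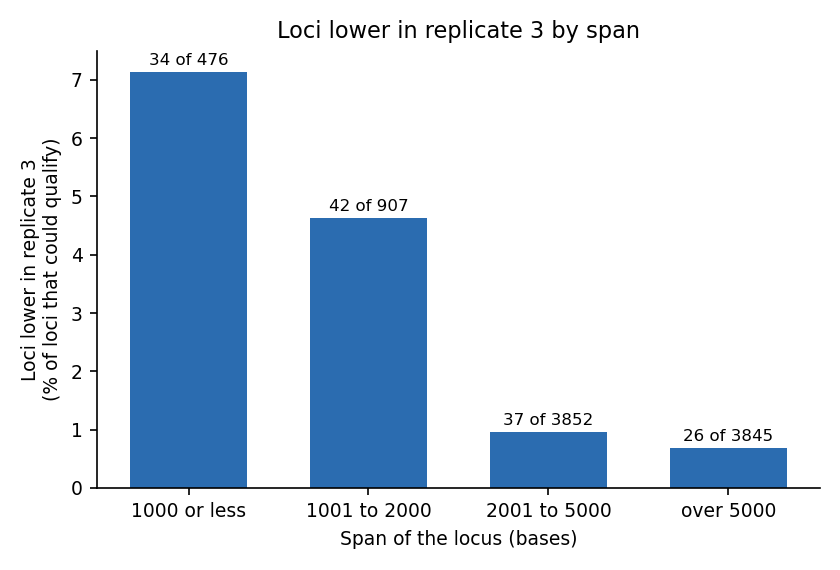
Loci lower in replicate 3 as a percent of the loci that could have been lower, by span in bases. Bars fall from 7.14% at 1000 bases or less to 0.676% over 5000 bases, and each bar carries its number of lower loci and of loci that could have been lower.

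All 10 chromosomes carried lower loci, from 6 on chromosome 6 to 22 on chromosome 2. As a share of the loci that could have been lower, chromosome 10 was at the top with 3.0% (17 of 567) and chromosome 5 at the bottom with 0.607% (7 of 1153). Of the 139 loci, 5 shared their interval with another locus of the files, and 2 of these shared 1 interval on chromosome 2 (4305357 to 4312971), so the loci occupy 138 intervals. How reads were divided between such loci or between near-identical copies was not given in the sources used here.

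In 2 places, at least 3 lower loci followed each other with gaps of at most 200 kb. On chromosome 7, all 4 loci of the files between 12591109 and 12710092 were lower in replicate 3. They span 723 to 1189 bases, and together they summed to 382, 275 and 35.1 FPKM in WT replicates 1 to 3 and to 170, 140 and 9.27 FPKM in o11. On chromosome 10, between 80878304 and 81186715, 5 of 8 loci were lower. Their sums were 664, 669 and 57.9 FPKM in WT and 355, 366 and 23.9 FPKM in o11. In both places the o11 library was lower than the WT library of the same number, at each single lower locus as well as in the sums. The WT sum was higher than that of o11 by 2.24, 1.96 and 3.79 times in replicates 1 to 3 on chromosome 7 and by 1.87, 1.82 and 2.42 times on chromosome 10.

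The 3 other loci inside the chromosome 10 stretch had little transcript. One at 81033351 stood at 10.1, 10.01 and 1.11 FPKM in WT, and at 4.03, 6.18 and 0 FPKM in o11, short of 10 FPKM in o11 replicates 1 and 2 and with a value of 0. A second, at 81065640, was at 7.75, 8.53 and 0.401 FPKM in WT and at 2.39, 2.97 and 0.715 FPKM in o11. The third never exceeded 0.240 FPKM. The first and second thus followed the neighbouring loci downward in replicate 3 without meeting the rule.

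**Figure D4:**
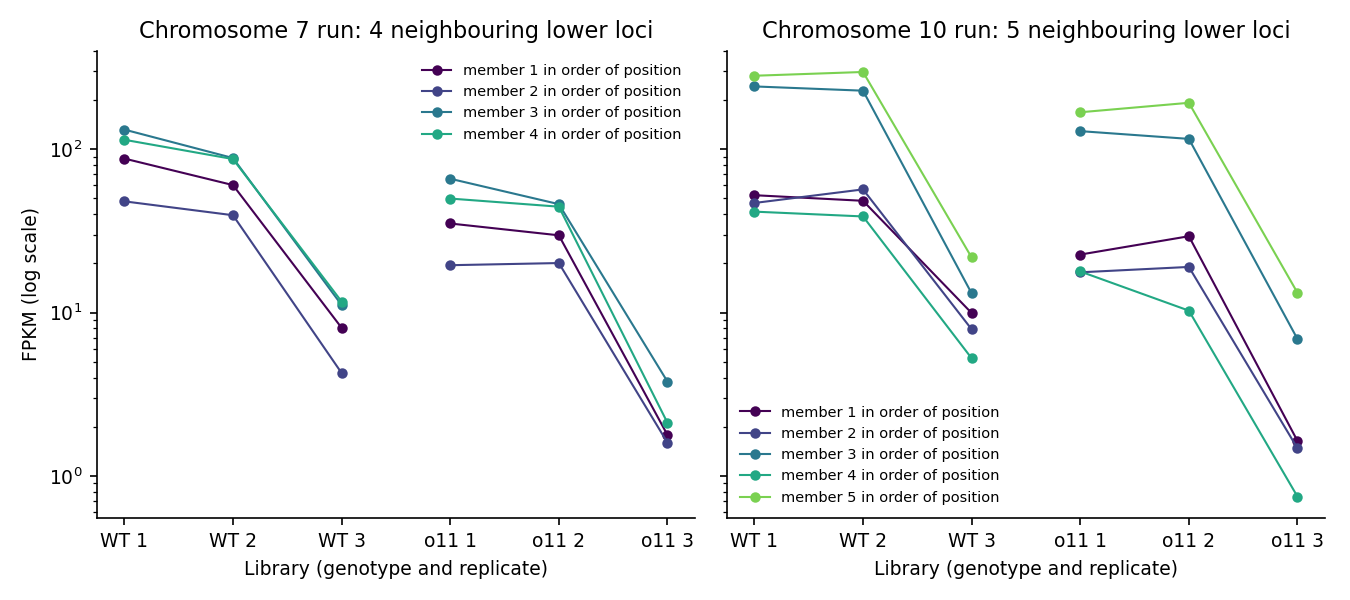
FPKM (log scale) per library of the neighbouring lower loci on chromosome 7 (4 loci, left) and chromosome 10 (5 loci, right), 1 colour per locus in order of position; lines join the libraries of 1 genotype with no order implied. Each locus is lowest in replicate 3 of its genotype and lower in o11 than in WT at every replicate number.

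Replicates 1 and 2 also differed at these loci, a contrast that the rule did not set. Of the 139 lower loci, 98 (70.5%) were higher in replicate 2 than in replicate 1 in both genotypes and 31 (22.3%) were lower in both. Among the 8941 other loci that could have been lower, the shares were 37.9% and 47.4%. The median log2 ratio of replicate 2 over replicate 1 was 0.35 in WT and 0.26 in o11 for the lower loci, against -0.04 in each genotype for the others. This ratio moved with span as well. Up to 1000 bases, 58.8% of the lower loci and 76.9% of the other loci were higher in replicate 2 in both genotypes, whereas above 1000 bases the shares were 74.3% and 35.9%. Replicate 1 has other tools listed, and the part of that in the ratio was not tested.

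The genotypes were then compared at these loci, as log2(FPKM + 1) in limma over the 22314 loci that reached 1 FPKM in 3 or more libraries. All 139 lower loci passed this filter, through the 4 libraries in which they are high, as did 12 of the 13 higher loci. Without a term for the replicate number, 0 of the 139 and 0 of the 12 were called at an adjusted p under 0.05 in limma (Benjamini-Hochberg), and 0 had an unadjusted p under 0.05. Over all tested loci 0.793% were called, 0.52% higher and 0.273% lower in o11. That fit counts the replicate 3 difference as spread within a genotype, and the rule picked the loci for a large one. With the replicate number as a block, 42 of the 139 lower loci fell in o11 and 2 rose. Over all tested loci 19.2% were called with the block, of which 9.33% fell and 9.83% rose.

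The lower loci thus fell in 30.2% of cases and rose in 1.44%. For the loci that could have been lower, which are all well expressed, the block gave 15.4% falls and 9.11% rises. When only replicates 1 and 2 were fitted with the block, falls were called at 51 of the 139 and rises at 8, against 11.7% and 11.9% of all tested loci. All tested loci include less expressed ones. The shares among the loci that could have been lower are not given for this fit, so it has no background of like level. The count of 44 called loci with the block fell to 8 in the replicate 2 and 3 libraries alone, which share their listed tools. Leaving out WT replicate 1 gave 9, leaving out o11 replicate 1 gave 12, and leaving out replicate 2 of either genotype gave 20. With the block, the partner of a left-out library adds nothing to the genotype contrast. Fits without either replicate 1 library therefore give the same log2 changes as replicates 2 and 3 alone, and are not separate checks. The calls over all tested loci fell in the same fits, from 19.2% to 2.13% with replicates 2 and 3 alone, to 2.1% and 2.33% without WT or o11 replicate 1, and to 3.6% and 3.72% without WT or o11 replicate 2. All 42 loci that fell kept a lower level in o11 in each of these fits. That outcome was fixed in advance and adds no support. Each of the 42 was lower in o11 in every pair, and these fits average the same pair differences. The median log2 change was 0.01 over the 139 lower loci and 0.00 over all tested loci.

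The falls in o11 were concentrated among the short lower loci. Of the 34 spanning up to 1000 bases, 24 fell and 0 rose with the block, with a median log2 change of -0.89. Of the 442 other loci of that span that could have been lower, 49 (11.1%) fell and 67 (15.2%) rose, with a median of 0.09. Above 1000 bases, 18 of 105 lower loci (17.1%) fell and 2 rose, against 15.3% and 8.92% of 8499 other loci. This class was mixed. From there up to 2000 bases, 11 of 42 lower loci (26.2%) fell, against 7.40% of 865 other loci, so the excess of falls did not end at 1000 bases. Between 2000 and 5000 bases 4 of 37 (10.8%) fell, against 12.9% of other loci. Over 5000 bases 3 of 26 (11.5%) fell, against 19.5%. The bound of 1000 bases was set after these values had been seen, so the contrast between spans has no test.

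Within replicate numbers most of the 34 short lower loci had less transcript in o11, 30 of them in each pair of libraries. The median log2 ratio of o11 over WT across the 34 was -0.64 in pair 1, -0.75 in pair 2 and -1.36 in pair 3. Of the 34, 27 were lower in o11 in all 3 pairs while 0 were higher in all 3. The 105 longer ones had medians of 0.04, -0.14 and 0.46, with 25 lower and 21 higher in all 3 pairs. Abundant lower loci followed the short ones, and most of those at 100 FPKM or more were themselves short, so abundance and span were not separated here. Of the 17 with a mean of 100 to 300 FPKM in replicates 1 and 2, 12 were lower in o11 in all 3 pairs, as were 8 of the 10 above that, against 32.8% and 34.4% of the other loci in those classes. The ratios of o11 over WT spread most in replicate 3. In that pair 42 of the 139 loci were at least 2-fold higher in o11 and 42 at least 2-fold lower, against 1 and 16 in pair 1 and 1 and 11 in pair 2. Among the other loci that could have been lower, 4.29% were at least 2-fold higher and 2.13% at least 2-fold lower in pair 3. By the rule, however, the lower loci had low values in pair 3 and at least 10 FPKM in pairs 1 and 2. The other loci were not matched to them in level. How far the low level widened the pair 3 ratios was not tested.

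**Figure D5:**
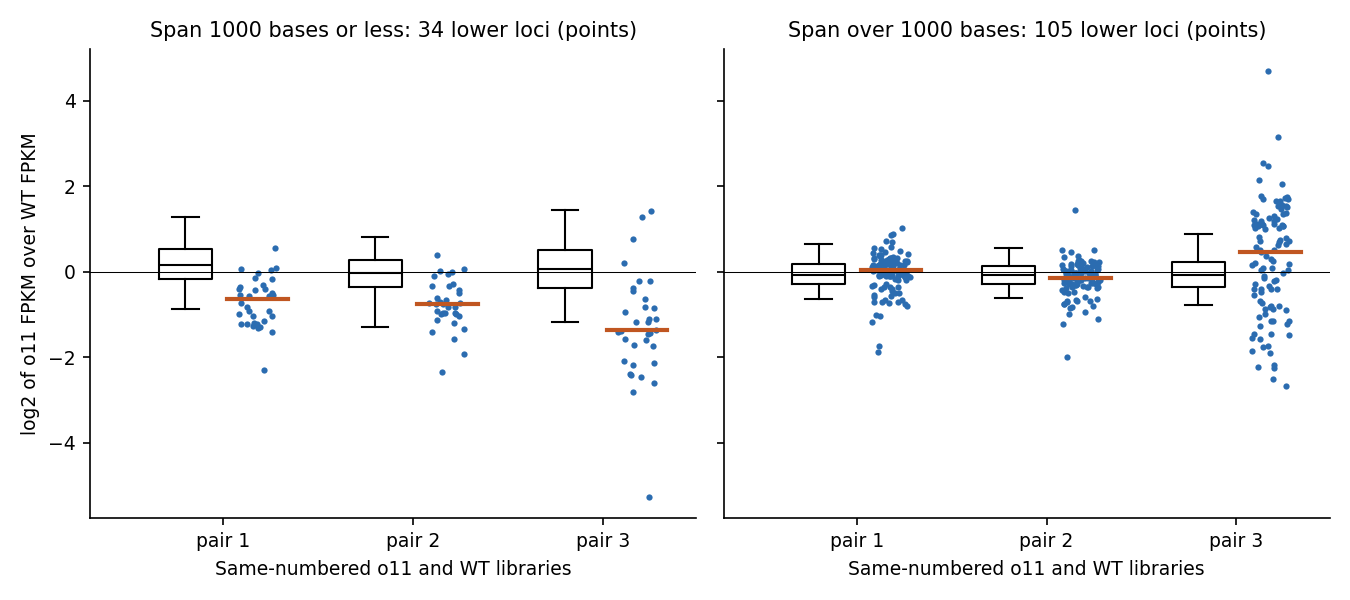
Log2 of o11 FPKM over WT FPKM within each replicate number, for loci spanning 1000 bases or less (left) and over 1000 bases (right). Points are the loci lower in replicate 3 (34 and 105) with their median as an orange bar; boxes give the quartiles and median of the other loci that could have been lower, with whiskers from the 5th to the 95th percentile. At short span the medians of the points are -0.64, -0.75 and -1.36, below those of the boxes, and in pair 3 the points spread widely at either span.

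Over the 139 loci, the pair 3 ratio went with the mean ratio of pairs 1 and 2, with Pearson's r = 0.63 and Spearman's rho = 0.59 across loci. The 8941 other loci gave 0.68 and 0.68. Loci are not independent replicates, and all of them share these 6 libraries.

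The deepest fall in o11 among the lower loci was on chromosome 4 (34294927 to 34295919). It had 298, 283 and 30.3 FPKM in WT replicates 1 to 3 and 61.2, 55.6 and 5.79 FPKM in o11. The log2 ratio of o11 over WT was -2.29, -2.35 and -2.39 in pairs 1 to 3, so the genotype ratio was nearly constant while replicate 3 lay 9.34-fold below the others in WT and 9.61-fold in o11. The fitted log2 change was -2.26 (SE 0.07 with the block, limma adjusted p = 0.00257; SE 1.18 without, adjusted p = 0.447). It was called in all 15 fits with the block, several of which share the same estimate, since a left-out library takes its partner out of the contrast.

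The chromosome 7 locus at 13073446 to 13074744 had 145, 95.03 and 12.1 FPKM in WT and 43.7, 40.8 and 1.89 FPKM in o11. Its log2 change was -1.70 (SE 0.19 with the block, limma adjusted p = 0.0092; SE 1.33 without, adjusted p = 0.641). All 3 o11 libraries were below their WT partners. Without WT replicate 1, without o11 replicate 1 or in the replicate 2 and 3 libraries alone the call was lost, with an adjusted p of up to 0.0582. These settings share the same estimate.

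Both lower loci that rose in o11 did so modestly. On chromosome 6 (38070649 to 38072014) WT had 37.8, 75.8 and 1.83 FPKM and o11 had 76.4, 108 and 5.35 FPKM, a log2 change of 0.89 (SE 0.14 with the block, limma adjusted p = 0.0188; SE 1.53 without, adjusted p = 0.863). On chromosome 2 (56111774 to 56113119) WT had 13.3, 31.2 and 1.06 FPKM and o11 had 24.4, 42.8 and 3.03 FPKM, a log2 change of 0.75 (SE 0.13 with the block, limma adjusted p = 0.0223; SE 1.24 without, adjusted p = 0.856). Each was higher in o11 in all 3 pairs, by less than the replicates differed. Neither call held without WT replicate 1 or o11 replicate 1, and the second was also lost without WT or o11 replicate 2 (adjusted p up to 0.103 and 0.125).

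Among the higher loci 3 of 12 (25%) rose and 1 (8.33%) fell in o11 with the block, against 9.83% and 9.33% of all tested loci. With 12 loci these shares rest on few calls. The chromosome 8 locus at 12275985 had the largest change of all members. It was 2.13, 3.06 and 4.80 higher in o11 on the log2 FPKM scale in pairs 1 to 3, and its fitted log2 change was 2.98 (SE 0.57 with the block, limma adjusted p = 0.0272; SE 1.64 without, adjusted p = 0.478). Without a replicate 1 or 2 library of either genotype the call was lost (adjusted p up to 0.0779). The chromosome 2 locus at 232655976 rose by 1.43 (SE 0.14 with the block, limma adjusted p = 0.00715; SE 1.0 without, adjusted p = 0.593). This locus was called in all 15 fits with the block, several of which share the same estimate. The chromosome 4 locus at 120618664 fell by 0.84 (SE 0.13 with the block, limma adjusted p = 0.0186; SE 1.12 without, adjusted p = 0.812), and lost its call without a replicate 1 or 2 library of either genotype (adjusted p up to 0.0986). The median change of the 12 was 0.33. It turned negative without WT replicate 1 (-0.19), WT replicate 2 (-0.16) or o11 replicate 3 (-0.62), which breaks a pair.

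By region, lower loci were counted in 4 windows known from earlier results of these data. In the first 30 Mb of chromosome 7, 7 of 8 lower loci fell in o11 with the block, at a median log2 change of -1.13, and in the first 35 Mb of chromosome 4 all 6 did, at a median of -0.98. The 7 on chromosome 7 include the run of 4 neighbours and the locus at 13073446, both described above. On chromosome 2 from 30 to 110 Mb, 1 of 7 fell and 1 rose. Toward the end of chromosome 3, 0 of 3 were called in limma with the block, adjusted or unadjusted, at a median of 0.09. Among the other loci that could have been lower, 19.6% of 148 fell in the chromosome 7 window, 22.8% of 171 in that of chromosome 4, 13.0% of 185 in that of chromosome 2 and 16.9% of 189 in that of chromosome 3. The windows hold few lower loci, and the difference in shares was not tested. Since the windows came from earlier results of these same data, falls within them are not independent support.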

How the data were processed

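The authors deposited FPKM values, 1 per locus in each library. For replicate 1 of both genotypes the submitters' processing notes list Bowtie 0.12.2, and they name TopHat and Cufflinks for replicates 2 and 3 and B73 RefGen_v3 as the build; the annotation and strand setting used are not given in the sources used here. Deposited starts count from 0 (plus 1, they equal a RefSeq gene start for 19 of 26 plastid and 41 of 62 mitochondrial intervals, against 1 and 0 as deposited) and are printed counted from 1. From these FPKM values, log2(FPKM + 1) was fitted with limma 3.58.1 (R 4.3.3, mean-variance trend) for loci reaching 1 FPKM in 3 or more libraries, with Benjamini-Hochberg adjustment over all 22314 and a threshold of 0.05. The fit was tested on simulated data. The replicate block was added as a second fit. Deviations from the genotype mean of same-numbered WT and o11 libraries correlated over loci at 0.75, 0.67 and 0.76 (0.73, 0.64 and 0.72 without the shifted loci), each over the limit of 0.1, and on these data, as no label states it, same-numbered libraries were treated as pairs. The loci, lists and splits were chosen with earlier results of these data known. Named loci are the 6 with the highest level and the 4 with the largest smaller fold per direction, those next to the limit, runs of neighbours, and the 2 largest rises and falls in o11 called with the block and of the same sign in all pairs. Levels at low FPKM rest on few fragments, and a fold change on this scale understates low loci. No sequence of RefGen_v3 was used here.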

Additional observations from a re-analysis of the deposited data

How the results depend on the processing

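The counts of 13 higher and 139 lower loci became 20 and 182 with a fold of 3, 4 and 76 with a fold of 8, 26 and 225 with a minimum of 5 FPKM, 6 and 87 with 20 FPKM, and 30 and 158 with values at 0 kept. Scaling moved them little: 12 and 143 after upper-quartile scaling, 12 and 144 after quantile normalization. Without a replicate 1 or 2 library they were 13 to 18 and 141 to 159; without a replicate 3 library the rule cannot be applied. With 10 FPKM asked of only 1 of replicates 1 and 2 (added after the data were seen) 175 were lower. Over all loci the 177 calls became 4276 in the paired fit (replicate block), 93 without a filter for low FPKM, 3 in the replicate 1 and 2 libraries alone (5273 with the block), 0 in the replicate 2 and 3 libraries alone (476 with the block; 2219 unadjusted in limma without it) and 2 to 14 without 1 library (with the block 469, 804 and 5163 without WT replicates 1 to 3 and 520, 831 and 5260 without o11 replicates 1 to 3). Alternatives run within the blocked fit were added after the data were seen: these calls over all loci were 3849 with a pseudocount of 0.1, 2987 with no filter, 4298 with upper-quartile scaling, 4587 with quantile normalization, 3341 with no mean-variance trend and 4091 without shared intervals. In the same order, calls among the lower loci, 0 without and 44 with the block, were 36, 30, 44, 51, 36 and 43, and among the higher loci, 0 and 4, they were 3, 3, 4, 5, 4 and 4. The replicate 1 and 2 libraries alone with the block gave 59 and 6, the replicate 2 and 3 libraries alone 8 and 1. Leaving out 1 library gave 0 without the block; with it, 9, 20 and 54 lower loci without WT replicates 1 to 3 and 12, 20 and 55 without o11 replicates 1 to 3, and 1 or 6 higher loci. Quantile normalization with the block gave 8 rises among the lower loci instead of 2. The median change of the lower loci moved from 0.01 to -0.12 in the replicate 1 and 2 libraries alone and to between -1.27 and 0.98 without 1 library; that of the higher loci, 0.33, to between -0.62 and 1.35. Leaving out 1 library without the block breaks a pair. With the block it takes both libraries of that pair out of the genotype contrast. Without WT replicate 3 the changes of 3 named loci reversed: 0.17 on chromosome 4 (120618664; range -1.79 to 0.17 without 1 library), -0.53 on chromosome 6 (38070649; -0.53 to 2.17) and -0.38 on chromosome 2 (56111774; -0.38 to 1.76). The cause of the other shifts was not tested. The FPKM files do not give the number of fragments, so the counting error of low replicate 3 values is not known.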
